A study of Homo sapiens with 12 samples.

Results

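STAT3 and the genes around it in interleukin-6 (IL-6) family signalling were followed through all libraries of monocytes cultured alone or next to endothelial cells (ECs). The 10 genes are the transcription factor STAT3, the cytokines IL6 and OSM, the receptor chains IL6R, IL6ST and OSMR, the kinases JAK1 and JAK2, and the feedback inhibitors SOCS1 and SOCS3. STAT3 was selected on its higher level in every co-culture than in mono-culture, so its values against mono-culture are given as a description, with no test. The other 9 were chosen as its cytokines, receptors, kinases and feedback inhibitors. The 10 genes are 10 of 58735 rows of the count table, and all 10 were among the 25873 genes that passed the minimum of 10 counts summed over the libraries.

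The cells sequenced were THP1 monocytes, a human leukaemia line. They were kept for 24 h either alone (mono-culture) or across a transwell from human umbilical vein ECs, and then received 100 ng/ml lipopolysaccharide (LPS) for 2 h. The ECs were either not made senescent (control ECs) or made senescent with etoposide (senECs). A further group of ECs was made senescent and then treated with the green tea flavonoid epigallocatechin gallate (EGCG-treated senECs). For control ECs the study's methods give dimethylsulfoxide as the control treatment. Each of the 4 groups has 3 libraries, and all 12 libraries received LPS, so no library shows these genes before LPS. The labels do not say that the 3 libraries of a group came from separate cultures, so p-values measure the spread between these libraries only.

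IL-6 binds its receptor IL6R and then the shared signalling chain gp130, which is encoded by IL6ST. Oncostatin M, encoded by OSM, signals through gp130 together with OSMR. The bound receptor chains bring JAK kinases together, the kinases phosphorylate STAT3, and phosphorylated STAT3 enters the nucleus and switches on target genes, among them SOCS3, whose product blocks the kinases again. In monocytes, LPS itself induces cytokines that engage this loop. RNA levels do not show phosphorylation, so none of the values below measures STAT3 activity.

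STAT dimers bind DNA at the letters TTCNNNGAA, which read the same on both strands. These letters were searched in windows from 250 bases before to 50 bases after each start site (RefSeq, GRCh38.p14). Windows were found for 9 of the 10 genes, 15 in all, and 0 of them held the letters. Of all 35116 windows 7.66% did, and with only 15 windows nothing is read from the 0. For SOCS3 and IL6 the windows lie at other start sites than those of the gene models given below. The bases directly before these model starts (chr17:78360077, minus strand, and chr7:22725884, plus strand) were therefore not searched. Of the 80 further pathway genes described below, 62 had a window and 8 of these (12.9%) held the letters, against 9.38% of all 27305 genes with a window. They were CISH and BCL6 with 4 matches each, and LIFR, IL10RB, PROS1, IRF1, LRG1 and ICAM1 with 1 match in a window. The upstream bases of STAT3 (chr17:42388569-42388692, minus strand), of MUC1, the target gene that later shows the largest called difference (chr1:155192917-155193165, minus strand), and of CISH, another SOCS family inhibitor (chr3:50611832-50612024, minus strand) are shown to let the matches be seen. Capitals mark TTCNNNGAA, and all 3 stretches end before the annotated transcripts begin.
STAT3: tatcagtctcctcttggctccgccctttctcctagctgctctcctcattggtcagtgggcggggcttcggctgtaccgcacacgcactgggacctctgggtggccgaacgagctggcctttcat
MUC1: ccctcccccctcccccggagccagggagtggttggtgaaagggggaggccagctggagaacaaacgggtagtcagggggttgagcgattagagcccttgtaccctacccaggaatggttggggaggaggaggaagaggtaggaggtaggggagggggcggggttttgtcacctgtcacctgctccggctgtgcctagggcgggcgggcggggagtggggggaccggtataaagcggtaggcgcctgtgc
CISH: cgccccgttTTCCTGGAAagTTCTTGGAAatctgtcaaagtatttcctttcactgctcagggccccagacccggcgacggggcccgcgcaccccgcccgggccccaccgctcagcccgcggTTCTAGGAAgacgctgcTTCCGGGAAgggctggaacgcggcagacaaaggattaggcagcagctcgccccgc
The matches in CISH form 2 pairs, and STAT3 and MUC1 hold none in these stretches. A match is a description of letters, and its absence says only that these letters are not in the window.

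The libraries held 15439836 to 22092600 counts, and 3 counts corresponded to at most 0.194 CPM, the count scaled to library size with TMM factors. All 10 monocytic markers were detected, although CD68 had only 2 to 16 counts. Mean CD14, the LPS co-receptor, was lowest in mono-culture (8.92 CPM), then 18.9 CPM next to control ECs, 27.5 CPM next to EGCG-treated senECs and 38.2 CPM next to senECs. CD14 reached 65.7 CPM in its highest library, and its order of means was not tested. The markers did not share 1 order. Mean CSF1R was highest in mono-culture (78.55 CPM, against 58.4 to 71.2 CPM in the co-cultures), while mean SPI1 was lowest there (244.5 CPM, against 268.9 to 325.1 CPM). The 14 endothelial markers summed to 22.4 to 28.3 CPM in mono-culture and to 24.6 to 34.3 CPM in the co-cultures, mostly EGFL7, while the defining endothelial gene CDH5 had 0 or 1 count in every library. In bulk RNA, a change in the share of cells that express a gene and a change in RNA per cell cannot be told apart.

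Levels of different genes were compared as FPKM, that is CPM divided by the summed exon length in kilobases. IL6R was the most abundant of the 10 genes, with a mean of 78.0 FPKM over 12 libraries, and STAT3 came next with 28.3 FPKM. SOCS3 followed with 20.7 FPKM and JAK1 with 20.4 FPKM. Libraries of STAT3 and SOCS3 overlapped, as did those of SOCS3 and JAK1. JAK2 with 8.08 FPKM and IL6ST with 6.85 FPKM also overlapped. OSM was at 1.84 FPKM, SOCS1 at 0.431, OSMR at 0.228 and IL6 at 0.147 FPKM, and each of these neighbours overlapped with the next. The receptor for IL-6 was thus near the top of the set and IL6 itself at the bottom, and the gap between IL6R and STAT3, between JAK1 and JAK2, and between IL6ST and OSM held in all 12 libraries.

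**Figure D1:**
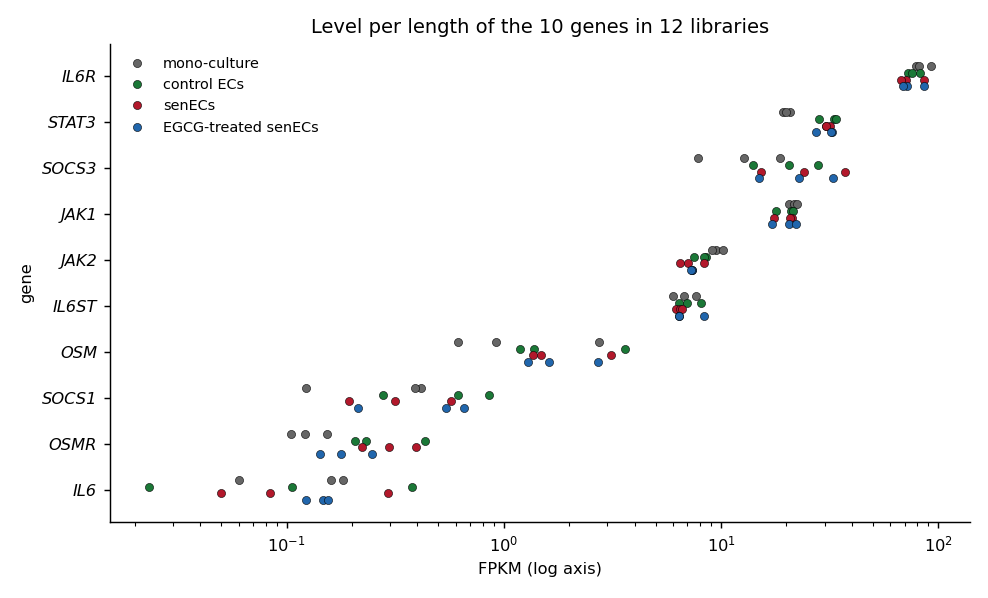
Level of each of the 10 genes in FPKM (log axis), one point per library, coloured by group, with genes in the order of their mean. IL6R sits highest at 67.5 to 93.0 FPKM, and SOCS1, OSMR and IL6 sit below 1 FPKM in every library.

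STAT3, on chromosome 17 (hg38, GENCODE 29 model chr17:42313324-42388568, minus strand), was at 182, 170 and 175 CPM in mono-culture. It was at 250, 291 and 298 CPM with control ECs, at 268, 279 and 269 CPM with senECs, and at 242, 287 and 283 CPM with EGCG-treated senECs. The 9 co-culture libraries all lay above the 3 mono-culture libraries. The log2 fold change against mono-culture was 0.67 for control ECs, 0.63 for senECs and 0.62 for EGCG-treated senECs, each with a standard error (SE) of 0.10, or about 1.56-fold over all co-cultures. These 3 contrasts share the same mono-culture libraries and are the values on which STAT3 was selected. In the count of genes whose 9 co-culture libraries all lay above mono-culture, which took in 1.77% of all genes, STAT3 is included by its selection and nothing is read from it.

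Among the co-cultures, which the selection did not compare, STAT3 did not differ beyond the spread of the libraries. With senECs against control ECs the log2 difference was -0.04 (95% interval -0.24 to 0.15 on the log2 scale, adjusted p = 0.950 in edgeR's quasi-likelihood test). With EGCG-treated senECs against senECs it was -0.01 (-0.20 to 0.19, edgeR adjusted p = 1). For EGCG-treated senECs against control ECs the difference was -0.05 (-0.24 to 0.15, edgeR adjusted p = 0.983). On the log2 scale these intervals reach from -0.24 to 0.19.

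**Figure D2:**
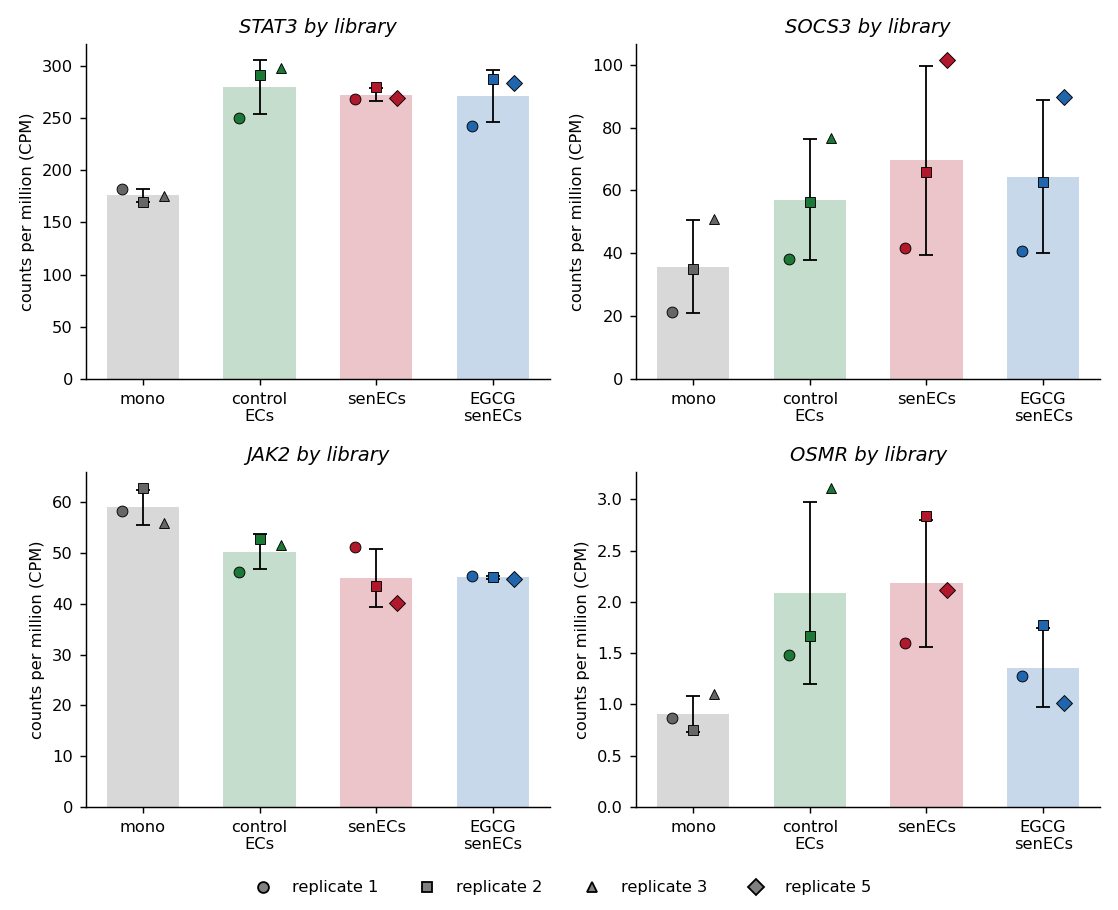
CPM of STAT3, SOCS3, JAK2 and OSMR in each library (points, shaped by the replicate number in the labels) with the group mean (bar) and SD (whisker), n = 3 libraries a group. STAT3 is higher and JAK2 lower in all 9 co-culture libraries than in the 3 mono-culture libraries, while SOCS3 spreads about 2-fold within each group.

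IL6 (chr7:22725884-22732002, plus strand), the cytokine that names the family, had the fewest counts of the 10 genes, 1 to 14 counts per library, or 0.0480 to 0.778 CPM. Mean IL6 was 0.277 ± 0.134 CPM in mono-culture (SD, n = 3). Next to control ECs it was 0.349 ± 0.382 CPM, next to senECs 0.294 ± 0.271 CPM, and next to EGCG-treated senECs 0.293 ± 0.0350 CPM. No difference in IL6 was detected at these counts, with 95% intervals for each co-culture against mono-culture that reached from -1.73 to 2.01 on the log2 scale. OSM (chr22:30262829-30266840, minus strand) had 1.31, 1.94 and 5.78 CPM in mono-culture. It had 2.93, 2.50 and 7.61 CPM with control ECs, 3.15, 2.89 and 6.59 CPM with senECs, and 3.41, 2.73 and 5.73 CPM with EGCG-treated senECs. Each group held 1 library well above its other two, and the groups overlapped. The log2 fold change of OSM over all co-cultures was 0.46 ± 0.41 (SE), which did not pass the test (edgeR adjusted p = 0.745).

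Of the receptors, IL6R (chr1:154405193-154469450, plus strand) was at 600, 512 and 527 CPM in mono-culture. It was at 533, 468 and 488 CPM with control ECs, at 556, 460 and 436 CPM with senECs, and at 554, 463 and 443 CPM with EGCG-treated senECs. In 6 of the 9 co-culture libraries IL6R lay below all mono-culture libraries. The share of all genes with such a count was not determined, so nothing is read from it. The log2 difference of IL6R over all co-cultures, -0.16 ± 0.09 (SE), did not pass the test (edgeR adjusted p = 0.567). IL6ST (chr5:55935095-55994993, minus strand), the chain that all cytokines of the family share, ranged from 55.8 to 71.1 CPM in mono-culture and from 57.8 to 77.3 CPM in the co-cultures, and its log2 difference was 0.01 (95% interval -0.18 to 0.21).

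OSMR (chr5:38845858-38945596, plus strand), through which oncostatin M signals together with gp130, was at 0.870, 0.754 and 1.10 CPM in mono-culture. It was at 1.49, 1.67 and 3.11 CPM with control ECs and at 1.60, 2.83 and 2.12 CPM with senECs. With EGCG-treated senECs it was at 1.28, 1.78 and 1.02 CPM, and the last of these overlapped with mono-culture. The log2 fold change was 1.19 ± 0.38 (SE) with control ECs, 1.26 ± 0.38 with senECs and 0.57 ± 0.40 for EGCG-treated senECs. None passed the test over all genes (edgeR adjusted p = 0.477, 0.217 and 0.723), and the log2 difference between EGCG-treated senECs and senECs, -0.69 ± 0.37 (95% interval -1.41 to 0.04), did not pass either (edgeR adjusted p = 1). These values rest on 14 to 56 counts per library, and the exons of OSMR share 229 bases with those of RICTOR on the opposite strand, which had 506 to 1066 counts. Whether the counting used strand is not given in the sources used here, so reads from these shared bases cannot be assigned to either gene.

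Of the kinases, JAK1 (chr1:64833229-64966504, minus strand), which pairs with gp130, was at 129 to 141 CPM in mono-culture and 109 to 140 CPM in the co-cultures. Its log2 difference over all co-cultures was -0.11 ± 0.09 (SE, edgeR adjusted p = 0.727). JAK2 (chr9:4984390-5128183, plus strand), which serves the same chain and several other cytokine receptors, was at 58.3, 62.8 and 56.0 CPM in mono-culture. It was at 46.3, 52.8 and 51.6 CPM with control ECs, at 51.3, 43.6 and 40.1 CPM with senECs, and at 45.5, 45.3 and 44.8 CPM with EGCG-treated senECs. All 9 co-culture libraries were below the 3 mono-culture libraries, as they were for 1.64% of all genes tested. JAK2 lay on the other side of mono-culture from STAT3, but the side of STAT3 was set by its selection, so nothing is read from this.

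The log2 difference of JAK2 was -0.23 ± 0.11 (SE) with control ECs, -0.39 ± 0.11 with senECs and -0.38 ± 0.11 for EGCG-treated senECs. Over all co-cultures it was -0.34 ± 0.09, a level 20.8% lower, which did not pass the test (edgeR adjusted p = 0.0923). JAK2 passed with DESeq2 (adjusted p = 0.0181) and in edgeR without senECs replicate 1 (adjusted p = 0.0302, and 0.0432 with senECs alone). Over the 19 alternatives its adjusted p ran from 0.00338 to 0.525, with 5 calls and a negative difference in all 19.

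Of the inhibitors, SOCS3 (chr17:78356778-78360077, minus strand) was at 21.5, 34.9 and 50.8 CPM in mono-culture. It was at 38.2, 56.2 and 76.8 CPM with control ECs, at 41.7, 65.7 and 101 CPM with senECs, and at 40.8, 62.7 and 89.7 CPM with EGCG-treated senECs. In all 4 groups the library numbered 1 was lowest and the library numbered 3 or 5 highest, and the highest was 2.01 to 2.43 times the lowest. Each co-culture group overlapped with mono-culture through its lowest library, while 6 of 9 co-culture libraries lay above all of mono-culture. How many of all genes reach 6 of 9 was not counted, so nothing is read from this.

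The log2 fold change of SOCS3 against mono-culture was 0.67 ± 0.32 (SE) with control ECs, 0.96 ± 0.32 with senECs and 0.85 ± 0.32 for EGCG-treated senECs. Over all co-cultures it was 0.83 ± 0.27, or 1.77-fold, and none of the 4 passed the test over all genes (edgeR adjusted p = 0.764, 0.273, 0.471 and 0.242). The call depended on the fit, and 3 of the 19 alternatives called SOCS3 over all co-cultures. One was the fit without a filter on low counts (edgeR adjusted p = 3.05e-12), where the SE of SOCS3 was 0.10, against 0.27 in the main fit. The others used the replicate number as a block (edgeR adjusted p = 1.28e-14, and 8.86e-13 with numbers 3 and 5 joined). With at least 10 counts in every library SOCS3 did not pass (SE 0.31, edgeR adjusted p = 0.229). Set against the mono-culture library of the same number, SOCS3 was higher in 7 of 7 co-culture libraries, by 1.51 to 1.94 times, and these 7 ratios share 3 mono-culture libraries. By this measure OSM and OSMR were also higher in 7 of 7, and IL6R, JAK1 and JAK2 in 0 of 7. IL6ST was higher in 5, SOCS1 in 4 and IL6 in 2. The share over all genes was not counted, so nothing is read from these counts. SOCS1 (chr16:11254405-11256200, minus strand), which inhibits JAK kinases directly, had 4 to 35 counts per library, or 0.220 to 1.54 CPM. Its log2 fold change over all co-cultures was 0.59 ± 0.50 (SE, edgeR adjusted p = 0.728), which did not pass the test.

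**Figure D3:**
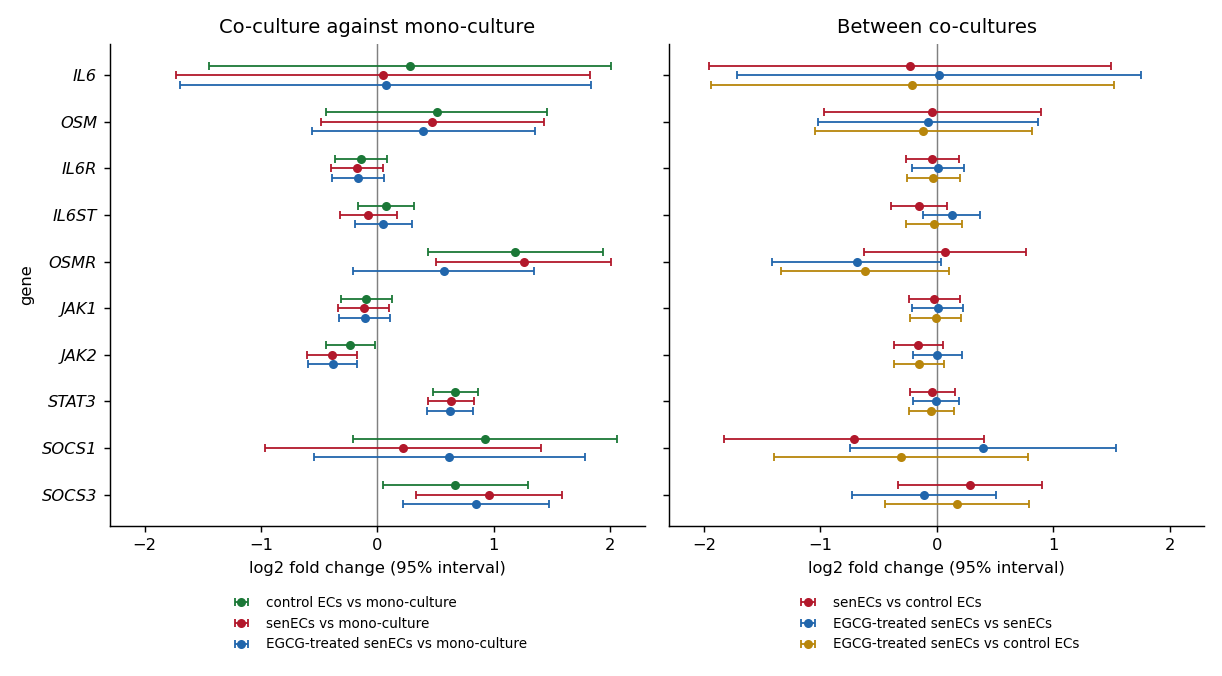
Log2 fold change with its 95% interval (points and whiskers) for each of the 10 genes, at left for the 3 co-cultures against mono-culture and at right between the co-cultures. At left, the intervals of STAT3 and SOCS3 lie above 0 and those of JAK2 below 0 in each co-culture, where STAT3 is the gene selected on this contrast and SOCS3 and JAK2 did not pass the test over all genes. At right, all intervals include 0.

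Setting STAT3 aside, 0 of the 9 other genes passed the test against mono-culture in any of the 4 contrasts. Over all genes tested, 37 (0.143%) passed next to control ECs, 80 (0.309%) next to senECs, 55 (0.213%) next to EGCG-treated senECs and 187 (0.723%) over all co-cultures. At an unadjusted p under 0.05, SOCS3 and JAK2 passed in all 4 contrasts and OSMR in 3, the exception being EGCG-treated senECs. Of all genes, 6.52% had such a p next to control ECs, 11% next to senECs, 8.58% next to EGCG-treated senECs and 10.7% over all co-cultures. The median log2 fold change of the 9 genes over all co-cultures was 0.13, with 6 above 0, and that of all genes tested was -0.02.

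Between the co-cultures, 0 of the 10 genes passed the test in any of the 3 contrasts. The share of all genes that passed was 0% with senECs against control ECs, 0% with EGCG-treated senECs against senECs, and 0% with EGCG-treated senECs against control ECs. DESeq2 also called 0 genes in each, while 1709 (6.61%), 575 (2.22%) and 1177 genes (4.55%) had an unadjusted p under 0.05 in edgeR, and 0 of the 10 were among them. SOCS3 differed by 0.29 on the log2 scale between senECs and control ECs (95% interval -0.33 to 0.91) and by -0.11 between EGCG-treated senECs and senECs (-0.73 to 0.51). JAK2 was more tightly bounded, with 0.01 (-0.21 to 0.22) between EGCG-treated senECs and senECs.

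The wider pathway was described through 80 further genes in 7 lists, of which 78 were tested. Among 8 other cytokines of the family, 9 tested of 10 other receptors that signal through STAT3, 6 other STAT factors, 16 SOCS, PIAS and phosphatase inhibitors and 3 receptor shedding proteases, 0 genes passed in any of the 7 contrasts. Among these, EBI3, a subunit of IL-27, was the most abundant cytokine gene at 18.7 FPKM, and CSF3R, the receptor for granulocyte colony-stimulating factor, the most abundant receptor at 37.0 FPKM with a log2 difference of 0.00 over all co-cultures.

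Of the 2 other JAK kinases, TYK2 was at 28.9 FPKM with a log2 difference of -0.11 ± 0.11 (SE, edgeR adjusted p = 0.799). JAK3, which serves cytokine receptors with the common gamma chain, was at 0.249, 0.108 and 0.110 CPM in mono-culture and at 0.413 to 3.48 CPM in the 9 co-culture libraries, all above mono-culture. Of all genes tested, 1.77% had all 9 co-culture libraries above mono-culture. JAK3 passed over all co-cultures (edgeR adjusted p = 0.0380) and with EGCG-treated senECs (edgeR adjusted p = 0.0384). The mono-culture level rests on 8 counts in 3 libraries against 207 in the co-cultures, a ratio of 8.25 (95% exact interval 4.11 to 19.4, for counting error only). The call over all co-cultures was lost in 7 of 12 fits that left out 1 library, namely each mono-culture library (adjusted p = 0.0949, 0.305 and 0.229), control ECs replicates 2 and 3, senECs replicate 2 and EGCG-treated senECs replicate 2. The call with EGCG-treated senECs was also lost in 7 of the 12, with adjusted p from 0.0591 to 0.276.

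Genes that textbooks name as STAT3 targets were the 1 list with several calls. Of 35 such genes, 34 were tested, and over all co-cultures 6 rose, 0 fell and 28 did not pass, against 0.723% of all genes called. The log2 difference was above 0 for 30 of the 34, with a median of 0.29, where all genes had a median of -0.02 and 47.6% above 0. With control ECs 1 target gene was called (MUC1), with senECs 3 (MUC1, BCL3 and CEBPB) and with EGCG-treated senECs 3 (MUC1, BCL3 and PIM1), all higher. The counts depended on the fit: DESeq2 called 8 targets over all co-cultures and 2, 7 and 6 in the 3 single co-cultures in the same order. With every gene with a count kept, edgeR called 14 targets over all co-cultures and 7, 14 and 14 in the single ones, where it called 582 of 34767 genes over all co-cultures. With at least 10 counts in every library it called 4 over all co-cultures. In none of these fits was a target called lower against mono-culture. The list was compiled with earlier results of these data known and says nothing on which factor drives its genes.

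MUC1, a membrane mucin, was at 10.5, 5.81 and 7.82 CPM in mono-culture. It was at 28.1, 28.4 and 22.8 CPM with control ECs, at 34.0, 25.9 and 27.6 CPM with senECs, and at 40.2, 23.9 and 25.9 CPM with EGCG-treated senECs. All 9 co-culture libraries lay above mono-culture, as they did for 1.77% of all genes tested. The log2 fold change over all co-cultures was 1.83 ± 0.19 (SE, edgeR adjusted p = 5.1e-05). MUC1 was called in each of the 3 co-cultures and in every fit that left out 1 library.

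BCL3, a nuclear IκB protein, was at 58.2, 64.1 and 79.0 CPM in mono-culture and at 98.9 to 155 CPM in the 9 co-culture libraries. Its log2 fold change was 0.83 ± 0.11 (SE, edgeR adjusted p = 0.00096). PIM1, a survival kinase, was at 18.5 to 24.0 CPM in mono-culture and 26.7 to 40.0 CPM in the co-cultures, with a log2 fold change of 0.64 ± 0.12 (SE, edgeR adjusted p = 0.0164). Of the 34 target genes tested, 7 had all 9 co-culture libraries above mono-culture, as did 1.77% of all genes tested. These were the 6 called targets and TNFRSF1A, which did not pass the test.

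The other 3 called targets were the transcription factors CEBPB and BATF and the IL-4 receptor chain IL4R. CEBPB rose by 0.56 ± 0.11 on the log2 scale (SE, edgeR adjusted p = 0.0127), from 44.2 to 49.4 CPM in mono-culture to 61.0 to 88.3 CPM in the co-cultures. IL4R rose by 0.56 ± 0.12 (edgeR adjusted p = 0.0348) and BATF by 0.60 ± 0.14 (edgeR adjusted p = 0.0483). Without any 1 of the 3 mono-culture libraries, 2 of the 6 targets remained called, MUC1 and BCL3, and without any 1 co-culture library 4 to 6 were called. IL4R also lost its call without control ECs replicate 2 or 3, senECs replicate 2 or EGCG-treated senECs replicate 2, and BATF without control ECs replicate 1 or 3, senECs replicate 2 or EGCG-treated senECs replicate 2 or 5. With control ECs the count of called targets became 2 without mono-culture replicate 3, senECs replicate 1 or senECs replicate 5. With senECs this count became 6 without senECs replicate 1 and 4 without EGCG-treated senECs replicate 1 or 5. It fell to 2 without any 1 mono-culture library or without senECs replicate 2 or 5. With EGCG-treated senECs the count became 5 without senECs replicate 1 or 5, and 4 without EGCG-treated senECs replicate 1. It fell to 2 without any 1 mono-culture library, control ECs replicate 3, senECs replicate 2, or EGCG-treated senECs replicate 2 or 5. Of the targets with a larger fold change but a wide spread, S100A9, a calcium-binding alarmin of myeloid cells, was at 126 ± 71.1 CPM in mono-culture and 690 ± 645 CPM with senECs (SD, n = 3), and its log2 difference over all co-cultures of 1.90 ± 0.55 (SE) did not pass (edgeR adjusted p = 0.160).

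**Figure D4:**
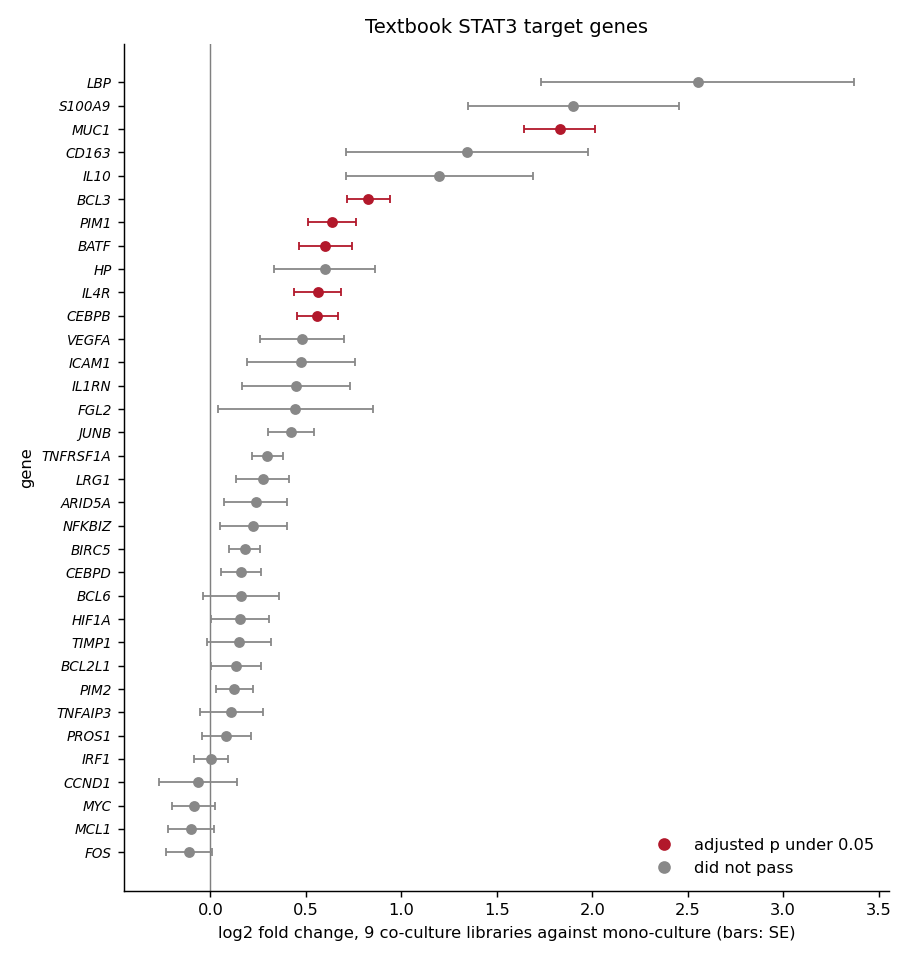
Log2 fold change over all 9 co-culture libraries against mono-culture for the 34 textbook STAT3 target genes tested (points, whiskers are SE), sorted by size. Red marks the 6 genes with an adjusted p under 0.05 in edgeR, and 30 of the 34 points lie above 0.

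Of the 27 target genes with a window, BCL6, ICAM1, IRF1, LRG1 and PROS1 held TTCNNNGAA (18.5%, against the 9.38% of all genes given above). None of these 5 passed the test, the 6 called targets held 0 matches, and at these numbers nothing is read from either count. ICAM1, a leukocyte adhesion molecule, was at 120 to 261 CPM in mono-culture and 149 to 414 CPM in the co-cultures, with a log2 difference of 0.47 ± 0.28 (SE, edgeR adjusted p = 0.577). IRF1, an interferon-response factor, differed by 0.00 ± 0.09. CISH, with its 4 matches shown above, was at 1.45 to 3.73 CPM in mono-culture and 2.06 to 5.12 CPM in the co-cultures (log2 difference 0.40 ± 0.26, edgeR adjusted p = 0.621), and its exons share 218 bases with MAPKAPK3 on the opposite strand, which had 1238 to 2188 counts.

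The genes whose profile over the 12 libraries was most like that of STAT3 were found by the root mean square difference of log2 profiles, each centred on its own mean, among 10826 genes with a mean of at least 5 CPM. The nearest was ALPK1, a kinase that senses a bacterial sugar, with a difference of 0.0741 where STAT3 itself spread by 0.287. Next came CHST11, a chondroitin sulfotransferase (0.0803), the stress-response gene FAM129A (0.0844), GCNT1, an O-glycan branching enzyme (0.100), and PVR, a cell adhesion receptor (0.101). ALPK1 was at 31.9 ± 3.51 CPM in mono-culture (SD, n = 3) and 46.6 ± 3.08 CPM in the co-cultures (SD, n = 9). FAM129A was at 81.7 ± 1.53 and 140 ± 14.5 CPM. Among the genes most like SOCS3 were MYO1G, a myosin of blood cells (0.160), and MERTK, a receptor for apoptotic cells (0.178), where SOCS3 itself spread by 0.583. These genes remained in place with a pseudocount of 0.5 in place of 2, and since they were picked for likeness, their difference from mono-culture is a description.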

How the data were processed

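RNA from 12 libraries of THP1 monocytes was measured by RNA sequencing. The authors aligned the reads with HISAT2 to hg38, per the submitters' processing notes, and deposited whole-number counts per gene; the counting program, its strand setting and the annotation are not given in the sources used here. A further 4 count columns matched no described sample and were not used. Library totals ran from 15439836 to 22092600 counts (median 18153783), and the count floor and the interval of the JAK3 count ratio cover counting error only. Gene lengths and positions came from GENCODE 29.

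Counts were fitted in edgeR 4.0.16 (quasi-likelihood test, TMM, all 12 libraries in 1 model of 4 groups, at least 10 counts summed), with Benjamini-Hochberg adjustment over 25873 genes and a threshold of 0.05. The 95% intervals of fold changes are 1.96 SE either side and include the spread between libraries. Alternatives were DESeq2 1.42.0, its size factors, 2 other count filters, the replicate number as a block, only the compared groups, and leaving out each library. The main edgeR fit and DESeq2 were also run on simulated counts, which held no spread shared by same-numbered libraries. That run therefore cannot decide between fits with and without the block. The members and lists were chosen with earlier results of these data known. Named genes were the 10 members, every pathway gene called in any of 7 contrasts, abundant genes of each list, and the 5 genes most like STAT3 and 3 most like SOCS3, and results of some genes so chosen are not reported here. The genes with TTCNNNGAA matches were named after their values were seen.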

Additional observations from a re-analysis of the deposited data

How the results depend on the processing

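Of the 9 genes other than STAT3, 0 were called against mono-culture in each of the 4 contrasts. With no filter on low counts the number became 1 in each of the 3 single co-cultures (SOCS3) and 2 over all co-cultures (SOCS3 and JAK2), and with DESeq2 it became 1 for senECs and over all co-cultures (JAK2). The cause was not tested. When 1 library was left out, it stayed at 0 with control ECs and with EGCG-treated senECs, and ran from 0 to 1 with senECs and over all co-cultures, where JAK2 was called without senECs replicate 1. The log2 difference of STAT3 from mono-culture, a description, stayed between 0.62 and 0.67 over all co-cultures in 19 alternatives. Between the co-cultures 0 of the 10 genes were called in every alternative.

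With the replicate number as a block, 1 gene was called with control ECs, 2 with senECs, 1 with EGCG-treated senECs and 4 over all co-cultures (SOCS3, OSM, OSMR and JAK2), and with numbers 3 and 5 joined as 1 level 1, 3, 2 and 2. SOCS3 was among them each time (over all co-cultures edgeR adjusted p = 1.28e-14 and 8.86e-13), and OSMR passed over all co-cultures with the block (adjusted p = 0.0171). The blocks called 12, 14, 14 and 14 targets and, joined, 12, 17, 15 and 16, in the same order. To compare libraries of different groups, each gene's log2 CPM was taken as its deviation from the mean of its group. These deviations, not the levels themselves, were correlated over all genes tested. The deviations of a gene sum to 0 within a group, so the pairs are not independent of each other. Same-numbered libraries correlated at 0.027 to 0.497 over 14 pairs, all above 0 but not all above 0.1. Differently numbered pairs ran from -0.469 to 0.474, the highest between numbers 3 and 5. In each pair of groups that share all numbers, 5 of 6 libraries correlated best with their own number. The labels do not say what the numbers stand for, and the fit without a block was kept as the main one. A spread shared by same-numbered libraries, as seen for SOCS3, thus stays in its SE.

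STAT3, SOCS1, SOCS3, OSM, OSMR, IL6R, JAK1, JAK2, JAK3 and the 6 called targets kept their direction over all co-cultures in all alternatives that gave a value, while IL6 (above 0 in 15 of 18) and IL6ST (16 of 19) did not. Over all genes the calls ran from 37 to 1243 over all co-cultures, 11 to 469 with control ECs, 19 to 1407 with senECs and 12 to 782 with EGCG-treated senECs. Between the co-cultures, where the reported count is 0, they reached 268 when senECs were set against control ECs, 14 when EGCG-treated senECs were set against untreated senECs and 60 when they were set against control ECs. IL6, SOCS1 and OSMR rest on fewer than 60 counts in each library.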
